A study of Mus musculus with 2 samples.

Results

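The Cyp2c cytochrome P450 genes were compared between liver areas with and without globules of mutant human alpha-1-antitrypsin (ATZ) in PiZ mice. The members are the 10 mouse genes Cyp2c29, Cyp2c37, Cyp2c38, Cyp2c39, Cyp2c40, Cyp2c44, Cyp2c50, Cyp2c54, Cyp2c55 and Cyp2c70, and a probe set counted where its platform annotation names only members. Of these 10, 9 had such a probe set, 1 each, out of 30027 genes named alone by a probe set. The probe set for Cyp2c29 also names the pseudogene Cyp2c53-ps, so its value is given apart. Cyp2c44 was matched to the RefSeq symbol Cyp2c23, for which RefSeq gives Cyp2c44 as a synonym. All 9 members lay above the floor that left 14963 genes for comparison. The family was chosen by the measured log2 differences of its members between these same arrays, several of them very large, so the values below are a description and no test was made.

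Each group is 1 array. The globule-containing group is RNA from areas of hepatocytes that hold ATZ globules, pooled from 2 mice, and the globule-free group is RNA from areas without globules, also pooled from 2 mice. Both groups come from untreated PiZ mice of 3 months on a C57BL/6 background with standard chow, transgenic for human ATZ with its human promoter, and no liver without the transgene was analysed here. Globules were seen in frozen sections stained with Cresyl Violet, and the areas were cut out by laser. The labels do not say whether the same mice gave both pools. Replication within a group is absent, so overlap between groups cannot be judged and no p-value or SD is given. Values below are given as with globules (the globule-containing array) and without (the globule-free array).

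Cyp2c enzymes sit in the endoplasmic reticulum membrane of hepatocytes and oxidise drugs, steroids, retinoids and fatty acids with electrons from P450 oxidoreductase. Many convert arachidonic acid to epoxyeicosatrienoic acids or to hydroxylated products, which act as lipid signals. In mouse liver several Cyp2c genes are strongest in hepatocytes around the central vein, and transcription depends on HNF4A, on the xenobiotic receptors CAR (Nr1i3) and PXR (Nr1i2) and, for some genes, on sex-dependent growth hormone pulses.

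The family did not differ as a block. Cyp2c54, Cyp2c50, Cyp2c37 and Cyp2c44 were between 11.3-fold and 56.8-fold lower in globule-containing areas, Cyp2c55 was 4.72-fold higher, and Cyp2c38, Cyp2c39, Cyp2c40 and Cyp2c70 lay within 2-fold. Thus 4 of 9 members were at least 2-fold lower, where 5.28% of all 14963 genes were, and 1 of 9 was at least 2-fold higher, where 6.46% were. The 4 members within 2-fold compare with 88.3% of all genes. The same 4 and 1 members passed 4-fold, as did 1.32% of genes downward and 1.42% upward. With a threshold of 1.5-fold, 6 of 9 were lower, where 11.9% of genes were. In such RNA from whole areas, fewer cells of a type and less RNA per cell cannot be told apart. These shares of all genes stand only as background, since the same differences chose the family. The median log2 difference (globule-containing minus globule-free) was -0.93 over the 9 members and 0.05 over all genes. Every member had a log2 signal above the background level of its array, set at 4.85 for globule-containing and 5.04 for globule-free areas from olfactory and vomeronasal receptor probe sets, and none was at the ceiling.

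**Figure D1:**
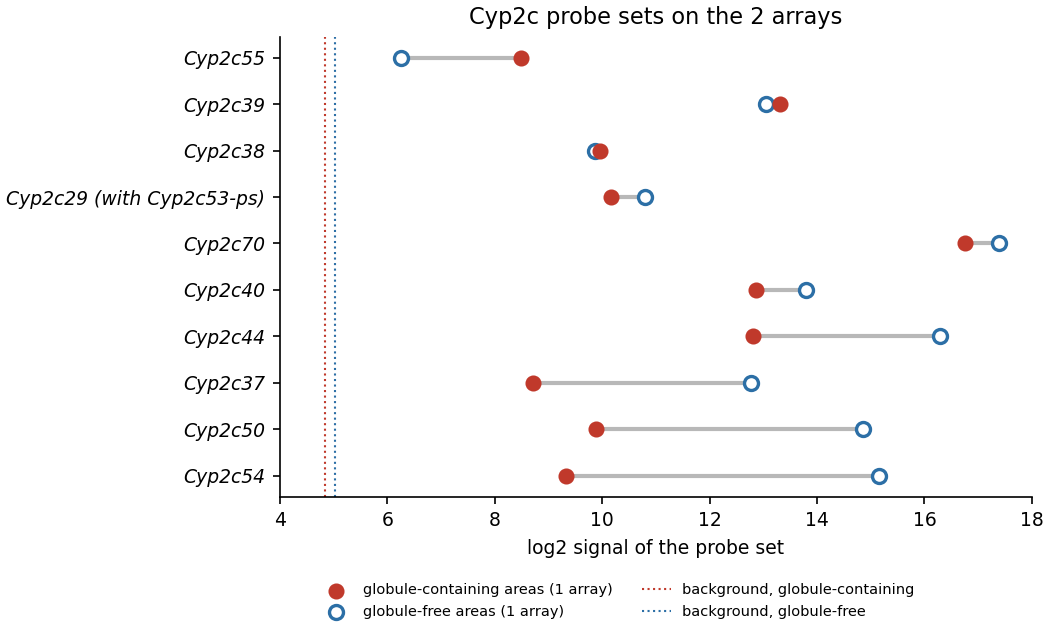
Log2 signal of the probe set of each Cyp2c member on the 2 arrays, with filled red points for globule-containing areas and open blue points for globule-free areas. Dotted lines mark the background level of each array. Cyp2c54, Cyp2c50, Cyp2c37 and Cyp2c44 have the longest gaps with the globule-containing point on the left, and Cyp2c55 is the member with a long gap the other way. Cyp2c29 shares its probe set with Cyp2c53-ps.

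Cyp2c54, Cyp2c50 and Cyp2c37, close relatives that metabolise arachidonic acid in mice, had the largest differences. Cyp2c54 (probe set TC1900001481.mm.1) gave log2 signals of 9.33 with globules against 15.16 without. That difference of -5.83, or 56.8-fold lower, ranked 3 from the lowest among the 14963 genes. Cyp2c50 (TC1900000568.mm.1) had 9.89 with globules against 14.86 without. It was 31.2-fold lower and ranked 6. Cyp2c37 (TC1900000567.mm.1), whose enzyme forms hydroxylated arachidonate, had 8.71 with globules against 12.77 without, 16.7-fold lower, at rank 20. All 3 globule-containing signals stayed well above the background of 4.85, so that level does not bound these folds. Probe sets of such close relatives can share hybridisation, so each value may not belong to 1 gene alone.

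Cyp2c44 (TC1900001550.mm.1), an epoxygenase studied in mouse kidney vessels and liver, gave log2 signals of 12.80 with globules against 16.30 without. It was 11.3-fold lower and ranked 39 from the lowest. Cyp2c44 lies outside the main gene cluster and is among the more divergent relatives, but its difference of -3.49 was nearest in size to that of Cyp2c37.

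Cyp2c40 (TC1900001479.mm.1), an arachidonate hydroxylase with higher expression in female than in male mouse liver, gave log2 signals of 12.86 with globules against 13.79 without. Its difference was -0.93, just within 2-fold, and it passed 2-fold lower after quantile normalization (-1.14) and after loess correction (-1.16). Cyp2c70 (TC1900001482.mm.1), which makes the muricholic acids that set mouse bile apart from human bile, had 16.75 with globules against 17.38 without. Its difference of -0.63 was 1.55-fold, and it was -0.93 under both of these corrections. Cyp2c70 had no difference of the size seen for Cyp2c54, although both are liver enzymes of 1 gene cluster.

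Cyp2c39 (TC1900000566.mm.1), which hydroxylates retinoic acid and arachidonate, gave log2 signals of 13.31 with globules against 13.05 without, a difference of 0.26. It was 0.02 after quantile normalization and 0.04 after loess correction. Cyp2c38 (TC1900001476.mm.1), a paralog with a different arachidonate product profile, had 9.96 with globules against 9.87 without. Its difference of 0.09 was the closest to 0 in the family and took the other sign after quantile normalization and loess correction. The probe set that names Cyp2c29, an abundant liver epoxygenase, together with Cyp2c53-ps (TC1900000565.mm.1) had 10.16 with globules against 10.79 without, a difference of -0.63.

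Cyp2c55 (TC1900000561.mm.1) was the only 1 of 9 members at least 2-fold higher. This hydroxylase is known from mouse colon and is inducible in liver by activators of CAR and PXR. It gave log2 signals of 8.50 with globules against 6.26 without, 4.72-fold higher, and it ranked 167 from the highest difference of all genes. Its difference lay between 2.16 and 2.34 under 3 other scalings of the arrays.

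**Figure D2:**
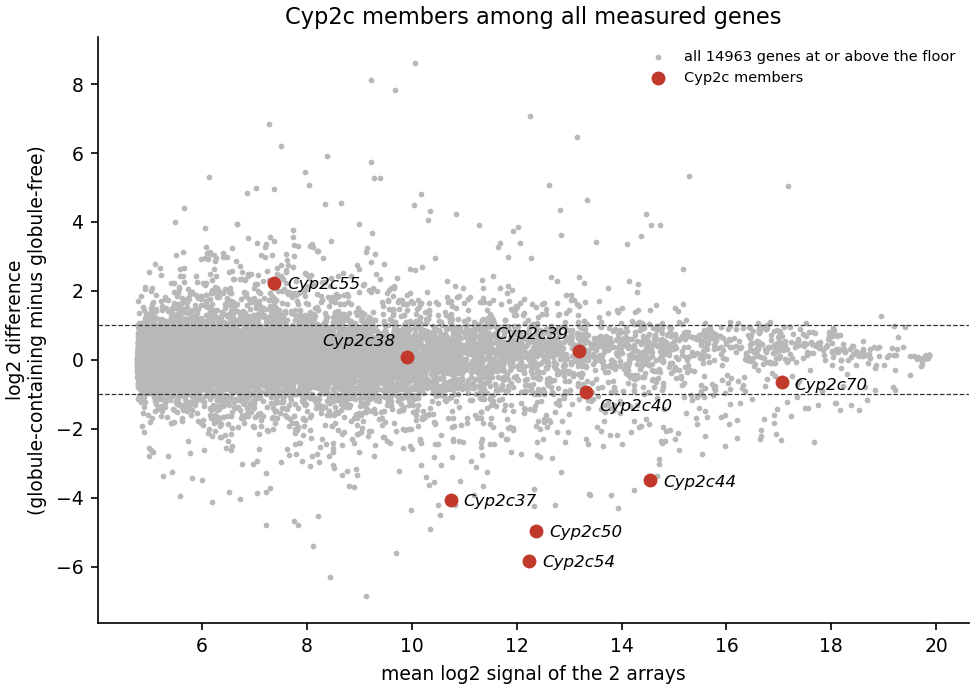
Log2 difference (globule-containing minus globule-free, vertical axis) against the mean log2 signal of both arrays for all 14963 genes (grey) and the 9 Cyp2c members (red). Dashed lines mark 2-fold. Cyp2c54, Cyp2c50, Cyp2c37 and Cyp2c44 lie below nearly all genes of like signal, while Cyp2c38 and Cyp2c39 lie close to 0.

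To show the regulatory sequence beside these differences, the 250 bases before the transcript start are printed for the strongly lower neighbours Cyp2c37 and Cyp2c50, for Cyp2c40 and Cyp2c70 (within 2-fold) and for Cyp2c55 (higher). They are RefSeq sequences of GRCm38.p6, 5′ to 3′ on the strand of the gene. Capitals mark each match to CAAAGTC, the first bases of the motif CAAAGTCCA that HNF4A prefers.
Cyp2c37 (chr19:39992174-39992423, plus strand): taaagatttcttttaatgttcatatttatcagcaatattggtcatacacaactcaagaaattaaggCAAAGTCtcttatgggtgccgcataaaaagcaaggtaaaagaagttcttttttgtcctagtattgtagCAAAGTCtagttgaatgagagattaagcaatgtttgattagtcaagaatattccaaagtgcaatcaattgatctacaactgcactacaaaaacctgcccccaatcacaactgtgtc
Cyp2c50 (chr19:40089429-40089678, plus strand): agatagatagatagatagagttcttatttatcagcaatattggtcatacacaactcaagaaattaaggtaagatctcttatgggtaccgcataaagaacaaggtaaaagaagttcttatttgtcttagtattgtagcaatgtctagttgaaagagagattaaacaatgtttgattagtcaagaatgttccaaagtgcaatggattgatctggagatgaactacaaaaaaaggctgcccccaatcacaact
Cyp2c40 (chr19:39812815-39813064, minus strand): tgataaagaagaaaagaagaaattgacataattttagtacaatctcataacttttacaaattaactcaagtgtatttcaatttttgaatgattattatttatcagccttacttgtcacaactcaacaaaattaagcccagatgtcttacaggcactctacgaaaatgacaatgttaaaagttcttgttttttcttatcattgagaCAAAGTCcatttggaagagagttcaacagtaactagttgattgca
Cyp2c70 (chr19:40187287-40187536, minus strand): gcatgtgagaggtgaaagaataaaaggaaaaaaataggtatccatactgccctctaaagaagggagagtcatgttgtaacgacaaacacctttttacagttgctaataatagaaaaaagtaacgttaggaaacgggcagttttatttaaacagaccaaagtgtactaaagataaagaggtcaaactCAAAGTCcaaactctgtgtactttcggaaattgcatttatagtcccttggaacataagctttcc
Cyp2c55 (chr19:39006769-39007018, plus strand): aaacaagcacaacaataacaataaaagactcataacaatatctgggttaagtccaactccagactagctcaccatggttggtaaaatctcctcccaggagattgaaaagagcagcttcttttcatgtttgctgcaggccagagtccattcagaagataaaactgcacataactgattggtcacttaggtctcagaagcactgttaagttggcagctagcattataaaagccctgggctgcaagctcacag

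Promoter windows of 300 bases, with 250 before and 50 after the start, were listed for 8 of the 10 members, and for 13 Cyp2c genes in 14 windows once the genes outside the member list were added. Cyp2c54 and Cyp2c44 had none in the table. The windows of Cyp2c37 and Cyp2c50, 16.7-fold and 31.2-fold lower, were 89.5% identical over 295 aligned bases. Cyp2c40 and Cyp2c69, with differences of -0.93 and -0.86, were 98.9% identical over 270 bases. The window of Cyp2c37 was 71.8% identical to that of Cyp2c40 over 220 bases, and their differences lay 3.13 apart on the log2 scale. The first window of Cyp2c39 was 86.3% identical to that of Cyp2c38 over 285 bases, and their differences lay 0.17 apart. Less alike windows also went with like differences. Those of Cyp2c40 and Cyp2c70 were 59.1% identical over 254 bases, and the differences of these genes lay 0.30 apart. A relation between identity and difference was not tested.

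The motif CAAAGTCCA, on either strand, was found in 6 of the 14 Cyp2c windows and in 0.475% of all 32851 windows. Those 6 belong to Cyp2c40, Cyp2c65, Cyp2c67, Cyp2c68, Cyp2c69 and Cyp2c70. Its shorter form CAAAGTC, which overlaps it and was chosen after the windows were read, was in 11 of 14 Cyp2c windows and in 4.44% of all windows. Cyp2c37 held the short form 2 times, starting 184 and 116 bases before the transcript start, and Cyp2c50 did not hold it, although both genes were strongly lower. The motif TTGCNNAA of C/EBP factors was in 4 of 14 Cyp2c windows and in 10.8% of all windows. The TATA-like TATAAAA, also chosen after the windows were read, was in 4 of 14 and in 5.48%, among them the window of Cyp2c55 at 29 bases before the start. The half-site GTTAAT of HNF1, chosen likewise, was in 3 of 14 and in 7.1%. The full HNF1 motif and the direct repeats DR1 and DR4, to which nuclear receptor pairs bind, were in none of the 14, and in at most 0.0396% of all windows. Paralogous windows share descent and are not independent, and a match is a string of letters, not a measured binding site.

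Along chromosome 19, some neighbouring genes had like differences, and the runs below were drawn after their values were seen. Neighbours in a run are close paralogs whose probe sets can share hybridisation, so their values may not be independent, and this was not tested. Cyp2c37, Cyp2c54 and Cyp2c50 are consecutive coding genes of the cluster, and their differences ran between -5.83 and -4.06. The 4 genes before them, Cyp2c67, Cyp2c68, Cyp2c40 and Cyp2c69, ran between -1.50 and -0.86. The 3 genes before those, Cyp2c29, Cyp2c39 and Cyp2c38, ran between -0.63 and 0.26. Within that run Cyp2c29, at -0.63, lay nearer to Cyp2c69 of the next run, at -0.86, than to its neighbour Cyp2c39, at 0.26. Cyp2c65 and Cyp2c66, between Cyp2c55 and Cyp2c29, were at background on both arrays. At one end of the cluster Cyp2c70, next to Cyp2c50, had -0.63, and at the other end Cyp2c55 had 2.24. Adjacent genes could therefore lie within 1 log2 unit of each other, as Cyp2c54 and Cyp2c50 do, or over 4 units apart, as Cyp2c50 and Cyp2c70 are.

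No measured neighbour of another family had a difference as low as those of the 4 lower members. Hells, a chromatin remodeller beside Cyp2c55, gave log2 signals of 4.88 with globules against 5.62 without, a difference of -0.74. Pdlim1, a PDZ and LIM domain protein beside Cyp2c70, had 9.97 with globules against 8.01 without, a difference of 1.96. Away from the cluster, the coding genes on either side of Cyp2c44 were Cpn1, a carboxypeptidase subunit, at -0.63 and Erlin1, an endoplasmic reticulum lipid raft protein, at -0.23, against -3.49 for Cyp2c44 itself.

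**Figure D3:**
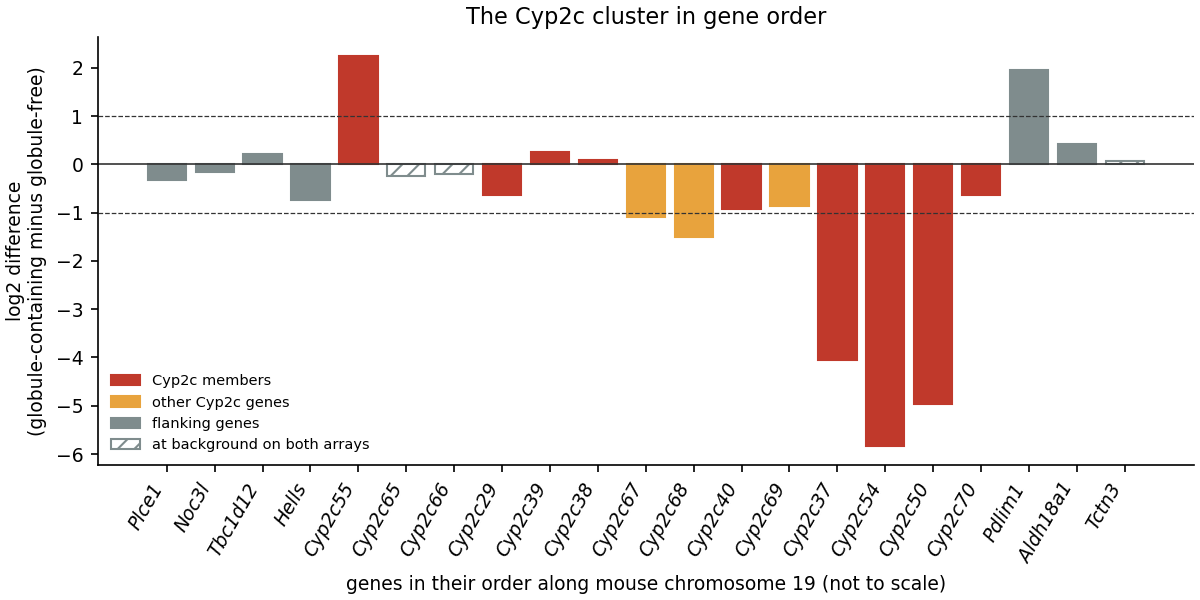
Log2 difference (globule-containing minus globule-free) of each coding gene of the Cyp2c cluster and of flanking genes, in gene order along chromosome 19 and not to scale. Members are red, other Cyp2c genes orange, flanking genes grey, and hatched bars are at background on both arrays. The deepest bars are the 3 consecutive genes Cyp2c37, Cyp2c54 and Cyp2c50, and Cyp2c55 at the left end of the cluster is higher.

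The 5 Cyp2c genes outside the member list were read for completeness. Cyp2c68 gave log2 signals of 11.98 with globules against 13.48 without, 2.83-fold lower. Cyp2c67 had 14.90 with globules against 15.98 without, a difference of -1.08 that lay within 2-fold (-0.98) when each array was centred on its median. Cyp2c69, like Cyp2c40 a gene with higher expression in female liver, had 11.38 with globules against 12.24 without, a difference of -0.86 that passed 2-fold after quantile normalization (-1.08). Cyp2c65 and Cyp2c66, known from the gut, were at background on both arrays. Near-identical paralogs such as these can share hybridisation, so a value cannot be assigned to 1 gene with certainty.

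Set beside other drug-metabolising P450 genes, the 4 lower Cyp2c members had lower differences than any of them. Of 30 measured Cyp1 to Cyp3 genes outside Cyp2c, 10 were lower by 2-fold or more and 1 was higher by as much, with a median of -0.35. The lowest was Cyp2f2, a periportal P450, at -2.31, against -3.49 to -5.83 for the 4 lower Cyp2c members. Cyp2a4, a steroid hydroxylase whose probes can share signal with Cyp2a5, was 14.9-fold higher, and Cyp2d13 was 3.60-fold lower. Cyp2e1, the ethanol-inducible P450 of pericentral hepatocytes, had 18.97 with globules against 18.85 without. Cyp3a11, the main PXR target of mouse liver, had 19.11 with globules against 19.02 without. Both of these took the other sign after quantile normalization and after loess correction.

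No other measured enzyme of arachidonate and epoxide metabolism differed as much as the 4 lower Cyp2c members. Of 14 measured, 4 were lower by 2-fold or more and 1 was higher by as much, with a median of -0.06, and 11 more were at background on both arrays. Cyp2j5, another arachidonate epoxygenase, was 2.79-fold lower, and Cyp4f15, of the omega-hydroxylase family, 3.90-fold lower. Ephx2, the soluble epoxide hydrolase that turns the epoxides into diols, was 2.29-fold lower, at 12.82 with globules against 14.01 without. Ephx1, the microsomal epoxide hydrolase, was 3.00-fold higher.

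Bile acid synthesis, in which Cyp2c70 takes part, held a larger difference than Cyp2c70 itself. Of 16 measured genes, 6 were lower by 2-fold or more and none higher by as much, with a median of -0.78. Cyp8b1, the sterol hydroxylase that directs synthesis to cholic acid, was 77.9-fold lower (5.29 with globules against 11.57 without), while Cyp7a1, the rate-limiting enzyme, had 13.99 with globules against 14.54 without. Slc27a5, a bile acid coenzyme A ligase, was 6.81-fold and Akr1d1, a steroid reductase, 5.23-fold lower. Cyp2c70, at -0.63, lay near Cyp7a1 at -0.55.

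Of 13 measured redox partners and heme genes, 12 lay within 2-fold, a share near the 88.3% of all genes. Among the 13, none was lower by 2-fold or more and 1 was higher by as much, with a median of 0.12. That gene was Blvrb, a biliverdin reductase, at 4.06-fold. Alas1, the rate-limiting enzyme of heme synthesis, had 11.62 with globules against 12.55 without, a difference of -0.93 that passed 2-fold after quantile normalization (-1.13). Hmox1, which degrades heme, differed by 0.81. Por, the P450 oxidoreductase, was not analysed here.

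Of 21 measured transcription regulators of liver P450 genes, 6 were lower by 2-fold or more and none higher by as much, with a median of -0.61. Nr1i3, which encodes CAR, gave log2 signals of 8.65 with globules against 10.16 without, 2.84-fold lower. Onecut1 (HNF6) was 4.57-fold, Ppargc1a, a coactivator, 4.11-fold and Nr0b2, the repressor SHP, 3.72-fold lower. Nr1i2, which encodes PXR, differed by -0.80 and Hnf4a by -0.75, both within 2-fold. The 15 measured targets of CAR and PXR had a median of -0.07, with 2 lower by 2-fold or more and 2 higher by as much. Cyp2b10, the standard CAR target, had 7.41 with globules against 7.49 without, a difference of -0.07 that took the other sign when the arrays were centred on their medians. Within this list Abcc3, an efflux pump, was 3.69-fold higher, while Cyp2b9 was 2.78-fold and Cyp3a13 2.23-fold lower. The member Cyp2c55, which is not in this list, was 4.72-fold higher, and whether CAR or PXR had a part was not tested.

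**Figure D4:**
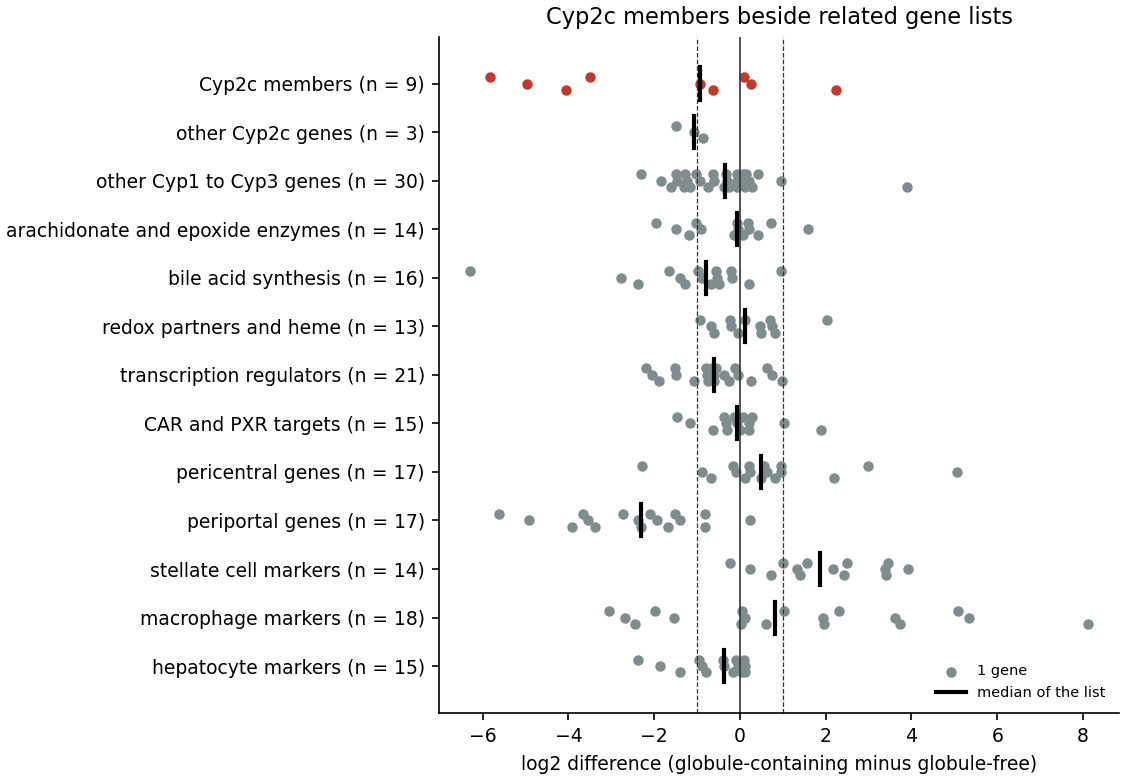
Log2 difference (globule-containing minus globule-free) of every gene above the floor in the Cyp2c members (red) and in related lists (grey). Each point is 1 gene, black bars are list medians and dashed lines mark 2-fold. The Cyp2c members spread between -5.83 and 2.24, wider than the regulators, partners or CAR and PXR targets. The macrophage markers spread wider still, between -3.05 and 8.11.

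The lower Cyp2c members can be set beside both zones of the liver lobule. Pericentral genes, a group with which Cyp2c37, Cyp2c50 and Cyp2c54 are usually classed, had a median of 0.50 over 17 measured genes. Of these, 3 were higher by 2-fold or more and 1 lower by as much. That median was the value of Axin2, whose globule-free signal was at background, as were those of Lgr5 and Nkd1. Bounded by background, Axin2 differed by 0.22. The pericentral genes Glul, Rhbg, Cyp2a5 and Por, among others, were not analysed here. Among the measured ones Gstm3, a glutathione transferase, stood 33.2-fold higher and Aldh3a2, which oxidises fatty aldehydes, 7.99-fold higher. Ces1d, a carboxylesterase, was 4.85-fold lower. Periportal genes had a median of -2.31, with 14 of 17 lower by 2-fold or more and none higher by as much. Hal, the histidine-degrading enzyme, was 48.9-fold, Etnppl 30.1-fold and Pigr 15.0-fold lower. The differences of Cyp2c54 (-5.83), Cyp2c50 (-4.96) and Cyp2c37 (-4.06) were thus of the size of the lowest periportal genes and below every measured pericentral gene.

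Markers of other cells also differed between the arrays. Of 15 measured hepatocyte markers, 3 were at least 2-fold lower and none higher, with a median of -0.37, and none was at background. Their summed signal was 22.51 with globules against 22.74 without (log2 of the sum), but most of it came from Alb, Trf and Ahsg, at the ceiling on both arrays, and Ttr, at the ceiling on the globule-free array. Over the 11 other hepatocyte markers the sum was 21.10 with globules against 21.72 without. Of 14 stellate cell markers above the floor, 11 were at least 2-fold higher. Among these 11, Hand2, Col1a2 and Acta2 had globule-free signals at background, and Hand2 differed by 0.94, within 2-fold, when bounded by it. The summed signal of the 15 stellate cell markers measured was 15.96 with globules against 12.59 without, with Des at background on both arrays. Of 18 macrophage markers above the floor, 9 were higher by 2-fold or more and 5 lower by as much, and the summed signal of the 19 measured was 18.39 with globules against 14.04 without, with Cd163 at background on both. Lyz2 held most of the sum with globules, and leaving it out gave 16.44 with globules against 13.36 without. The 5 lower ones were Clec4f, Cd5l, Vsig4, Timd4 and Marco, genes of resident Kupffer cells. Endothelial markers summed to 12.44 with globules against 11.97 without, with 2 of 14 higher by 2-fold or more, and Tie1 was at background on both arrays. Cholangiocyte markers summed to 8.32 with globules against 9.97 without, and Krt7, Cftr and Cldn4 were at background on both. The sum without globules was mostly Tff3, the 1 of 5 that was lower, and leaving it out gave 8.19 with globules against 7.81 without. The globule-containing signal of Tff3 was at background, and its difference was -4.75 when bounded by it. The other 4, Krt19, Epcam, Sox9 and Muc1, lay above 0 within 2-fold, but Krt19, Epcam and Muc1 had globule-free signals at background. Neutrophil markers summed to 12.21 with globules against 8.27 without, and Mmp8 and Il1r2 were at background on both. The 2 of 5 that were higher were S100a8 and S100a9, and leaving both out gave 7.76 with globules against 7.52 without. Lymphocyte markers summed to 9.26 with globules against 8.42 without, with 9, Cd3e, Cd4, Cd8a and Ms4a1 among them, at background on both. The 1 of 3 that was higher was Ptprc, a gene of all leukocytes, and leaving it out gave 7.77 with globules against 7.92 without. The part of these cells in the Cyp2c differences was not tested.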

How the data were processed

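RNA from 2 laser-captured pools was measured on 1 array each, from 50 ng of RNA amplified with a NuGEN kit, per the labels' protocols. The deposited table holds log2 signals for 72688 probe sets. The Transcriptome Analysis Console was used by the authors, per the submitters' processing notes. No source used here gives the background correction, normalization or genome build, and the log2 scale was read from the values. The number of arrays limits the precision.

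Of the probe sets, 30604 named 1 gene, 2146 named several and 39938 had none listed here. Entrez IDs of 22818 matched the RefSeq table (GRCm38.p6), updating 827 symbols, and probe sets of 1 gene were averaged. The floor was a mean log2 signal of 4.76, which is the median of all probe sets that name a single gene. Background on each array was the 95th percentile over 1718 probe sets for olfactory or vomeronasal receptors. The ceiling was within 0.2 of the highest value of an array. A difference is the log2 signal in globule-containing minus globule-free areas. Among genes above the floor, 174 had 2 probe sets, and the median gap between their differences was 0.17, and this was used as the tolerance for a moved value.

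The members and lists were chosen with earlier results of these data known. All 10 members are named, with the 3 largest differences of each related list and a fixed set of P450 genes and regulators. The nearest genes by signal level are left out, since levels of different probe sets are not comparable. The same limit holds for the summed marker signals, in which strong probe sets weigh most. Neighbouring genes, cell type markers, Il1b and those left out of sums were named after their values were seen. Promoters were aligned globally with Biopython 1.88. Counting and scaling were tested on simulated data. Alternatives were array scaling, the floor, the fold threshold, the choice of probe set and dim values. Counts of genes past a fold use measured signals, dim ones included. Software was numpy 2.4.6, Python 3.11.15, statsmodels 0.14.6 and pandas 2.3.3.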

Additional observations from a re-analysis of the deposited data

Results flagged for a closer look

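The probe set that names Cyp2c29 together with the pseudogene Cyp2c53-ps carried a clear signal but belongs to no counted member, because its annotation names a gene outside the family list. Its log2 signal was 10.16 in globule-containing areas, against a background level of 4.85, and 10.79 in globule-free areas, against a background level of 5.04. Which of the 2 genes gives this signal was not tested.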

How the results depend on the processing

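Over 11 alternatives, 9 of them planned, the 4 members Cyp2c54, Cyp2c50, Cyp2c37 and Cyp2c44 stayed at least 4-fold lower and Cyp2c55 at least 4-fold higher. Only the 3 array scalings could change a member value, because every member has 1 probe set above each floor and the background. The other alternatives could change only counts, shares of genes or the median. Across these settings Cyp2c54 ran between -6.01 and -5.73, Cyp2c50 between -5.15 and -4.87, Cyp2c37 between -4.20 and -3.97, Cyp2c44 between -3.78 and -3.40 and Cyp2c55 between 2.16 and 2.34. The median over members was -1.14 after quantile normalization and -1.16 after loess correction, with 5 members at least 2-fold lower in each, since Cyp2c40 passed. The share of all genes at least 2-fold lower also rose, from 5.28% to 6.43% after quantile normalization and 6.4% after loess correction. With a threshold of 1.5-fold, 6 members counted as lower, where 11.9% of all genes did. Of 99 member values under alternatives, 89 moved by less than 0.17, but most of these were fixed in advance by settings that leave member values unchanged. The 10 that moved by more were all under quantile normalization or loess correction. None of the values at least 2-fold apart changed sign. Counting the Cyp2c29 probe set or the other Cyp2c genes, both chosen after seeing the data, gave medians within 0.17 of the reported one. No probe set names several members and no other gene, so that alternative was not run. No paired analysis was possible because each group is 1 array, which also leaves the spread between mice unmeasured.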

Other observations

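Sex-dependent liver genes are of interest beside Cyp2c40 and Cyp2c69. Xist was at background on both arrays, and the Y-linked Eif2s3y gave log2 signals of 10.03 with globules against 9.94 without, so Y-linked RNA was present in both pools at like levels. Kdm5d had 7.09 with globules against 6.98 without, and Uty had 8.39 with globules against 7.87 without. Of 16 measured genes with higher expression in male liver, 10 were lower with globules by 2-fold or more and none higher by as much, with a median of -1.27. Elovl3, a fatty acid elongase, was at least 14.7-fold lower, with its globule-containing signal at background, and Hsd3b5, a steroid dehydrogenase, was 14.2-fold lower. Of 9 measured genes with higher expression in female liver, a list that holds Cyp2c69 but not Cyp2c40, 2 were at least 2-fold lower. Only Cyp2a4 was higher by 2-fold or more, and the median was -0.33. One of the 2 lower ones, Slc22a26, an organic anion transporter, had its globule-containing signal at background and a difference of -0.99 when bounded by it.

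Inflammatory signals are known to repress P450 genes. Of 18 measured genes of interleukin-1, interleukin-6, TNF and acute phase responses, 2 were higher by 2-fold or more and 2 lower by as much, with a median of -0.05. Lcn2, lipocalin 2, was 16.5-fold and Il1b, interleukin-1 beta, 2.25-fold higher, while the serum amyloids Saa2 and Saa1 were 4.15-fold and 3.61-fold lower. Il6 and Socs3 were at background on both arrays.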
